A study of Mus musculus with 9 samples.

Results

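Gene deserts are long stretches of the genome without protein-coding genes, and an open region inside one lies far from every coding promoter. The open regions described here are the autosomal members of the study's consensus region set that overlapped no protein-coding gene body and whose midpoint lay more than 200 kb from the nearest end of any protein-coding gene placed on mm10. This rule used positions only and selected 5728 of 80827 regions (7.09%), or 7.2% of the 79543 autosomal regions. Regions were measured by ATAC-seq, in which a transposase cuts accessible DNA and the reads per region measure how open it is. The cells were alphaTC1, a murine pancreatic alpha cell line from a tumour that arose in mice carrying SV40 large T antigen under the glucagon promoter. Cells were compared in 3 groups of 3 libraries: cells carrying an Smndc1 shRNA, cells carrying an Atrx shRNA, and cells carrying the empty vector, all collected 5 days after transduction. The labels describe the 3 libraries of a group as individual biological replicates. All groups share the tumour-derived line and the transduction, and the labels name a single Smndc1 shRNA construct.

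Distal open regions are where transcription factors bind enhancers, insulators and the promoters of long noncoding RNAs, and gene deserts that flank developmental genes are known to hold enhancers acting over long distances. Smndc1 encodes a spliceosome protein with a Tudor domain, a fold that binds methylated arginine. Atrx encodes a chromatin remodeller that, with Daxx, deposits histone variant H3.3 in heterochromatin and at telomeres. The series title names a link between chromatin remodelling and splicing in the control of pancreatic hormones. An shRNA acts on RNA, so accessibility at Smndc1 or Atrx is no check of the knockdown, and RNA levels were not analysed here. The nearest coding gene is given below as a position label and not as a target.

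Total counts in the 80827 regions were 5290810 to 8145228 per library. A desert region received a median of 16 to 27 counts per library, against 28 to 38 for all autosomal regions, so single desert regions were measured less precisely. Replicate 3 of each group had flatter profiles: the strongest 10% of all regions held 38.5% to 38.8% of counts in these libraries and 43.3% to 48.8% in the other 6. An open region lay at an end of 6 alpha cell marker genes and of 2 of 5 beta cell marker genes (none at Ins1, Ins2 or Pdx1). No open region lay at an end of the 2 delta cell, 2 fibroblast, 2 endothelial and 1 immune marker genes examined. The summed alpha marker level was 295 to 396 CPM with Smndc1 shRNA, 259 to 375 CPM with Atrx shRNA and 223 to 328 CPM with empty vector, where CPM are counts scaled to a common library size.

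Deserts lack coding genes but not RNA genes: 914 members (16%) overlapped a noncoding annotation entry, and 802 of them a long noncoding RNA gene. Of the members, 55 overlapped the promoter window (250 bases before to 50 after the start) of 54 noncoding genes, and 10 overlapped a microRNA hairpin. All 10 hairpins belong to the Mir344 family and lie within 402 kb at chr7:61683124-62085310 (GRCm38.p6, minus strand), between the coding genes Gm51483 and Ndn. A few mature microRNA seeds recur in this array, and the mature RNAs below are shown because they are the only microRNAs in open desert regions. Capitals mark the seed, bases 2 to 8, and sequences are from RefSeq. The seed of the first 3 RNAs below was shared by RNAs of 7 of the 10 hairpins, that of the next pair by 4, and that of the last 2 by 3.
mmu-miR-344-5p: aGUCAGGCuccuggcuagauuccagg
mmu-miR-344g-5p: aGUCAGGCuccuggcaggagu
mmu-miR-344d-1-5p: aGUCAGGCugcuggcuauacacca
mmu-miR-344d-3p: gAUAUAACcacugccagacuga
mmu-miR-344e-3p: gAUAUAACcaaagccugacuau
mmu-miR-344-3p: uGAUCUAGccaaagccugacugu
mmu-miR-344c-3p: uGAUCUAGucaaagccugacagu

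The promoter windows of 3 long noncoding RNA genes in open desert regions are shown because their regions appear in the results below. Gm26901 lies under one of the 5 most open members. Gm52184 and Gm29976 lie under the 2 promoter regions that passed a test with Smndc1 shRNA against empty vector, a choice made after their values were seen. All 3 are on the minus strand of GRCm38.p6: Gm26901 at chr1:7398047-7398346, Gm52184 at chr15:86738855-86739154 and Gm29976 at chr7:83383140-83383439. Capitals mark matches, on either strand, to the GC box GGGCGG, the TATA box TATAAA, the CCAAT box CCAAT, the AP-1 motif TGANTCA and the forkhead motif TGTTTAC; no matches overlapped in these windows.
Gm26901: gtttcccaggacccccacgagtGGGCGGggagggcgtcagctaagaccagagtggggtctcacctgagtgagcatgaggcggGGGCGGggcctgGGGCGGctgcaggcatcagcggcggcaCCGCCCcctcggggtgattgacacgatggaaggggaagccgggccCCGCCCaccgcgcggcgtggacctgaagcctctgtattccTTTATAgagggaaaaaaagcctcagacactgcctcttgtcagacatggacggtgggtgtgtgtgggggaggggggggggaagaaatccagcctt
Gm52184: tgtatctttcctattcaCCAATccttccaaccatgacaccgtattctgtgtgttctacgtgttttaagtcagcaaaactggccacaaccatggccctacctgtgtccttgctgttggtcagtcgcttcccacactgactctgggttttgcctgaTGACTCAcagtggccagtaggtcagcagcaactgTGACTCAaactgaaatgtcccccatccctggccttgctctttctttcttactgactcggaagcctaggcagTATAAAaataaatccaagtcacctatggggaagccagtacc
Gm29976: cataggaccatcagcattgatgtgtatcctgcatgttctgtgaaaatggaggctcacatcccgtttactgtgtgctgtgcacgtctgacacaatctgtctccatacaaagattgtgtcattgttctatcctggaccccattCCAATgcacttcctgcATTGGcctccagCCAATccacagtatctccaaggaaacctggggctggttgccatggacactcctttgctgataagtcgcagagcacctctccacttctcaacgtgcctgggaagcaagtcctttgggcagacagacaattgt

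The 56 desert promoter windows had a median GC content of 47%, against 53% for all 31396 autosomal windows and 48.3% for the 11311 windows of noncoding genes. A GC box was present in 2 of the 56 windows (3.57%), against 36% of all windows and 16.3% of noncoding ones. Gm26901, with 65.7% GC and 5 GC boxes, was one of these 2. A TATA box was present in 15 of the 56 windows (26.8%), against 13.6% of all windows and 15.2% of noncoding ones. The other motifs were present in 32.1% (CCAAT box), 12.5% (AP-1) and 8.93% (forkhead) of desert windows, against 37.3%, 7.84% and 3.71% of all windows. These are letter matches and do not show binding.

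Desert regions were weakly open, and those deeper in a desert were weaker. The mean level over the 9 libraries, in CPM scaled by edgeR's trimmed mean of M values (TMM), had a median of 3.12 CPM in deserts (interquartile range 2.31 to 4.83). The median was 4.31 CPM between genes within 200 kb of one, 4.8 CPM in gene bodies and 28.4 CPM at gene ends. Within deserts the median was 3.48 CPM at 200 to 300 kb from the nearest coding gene (2105 regions), 3.15 CPM at 300 to 500 kb (1886), 2.88 CPM at 500 to 1000 kb (1406) and 2.43 CPM beyond 1000 kb (331). The order held per kb of region width, with medians of 6.69, 6.2, 5.68 and 4.85 CPM per kb in these 4 classes from near to far, against 9.13 CPM per kb for all autosomal regions. Few members were strong: 13.4% (769) had a mean count of at least 50, against 37.1% of autosomal regions, and 71 (1.24%) were among the strongest 10% of all regions. Members in long noncoding RNA genes had a median of 3.57 CPM, and members outside any noncoding entry 3.07 CPM.

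**Figure D1:**
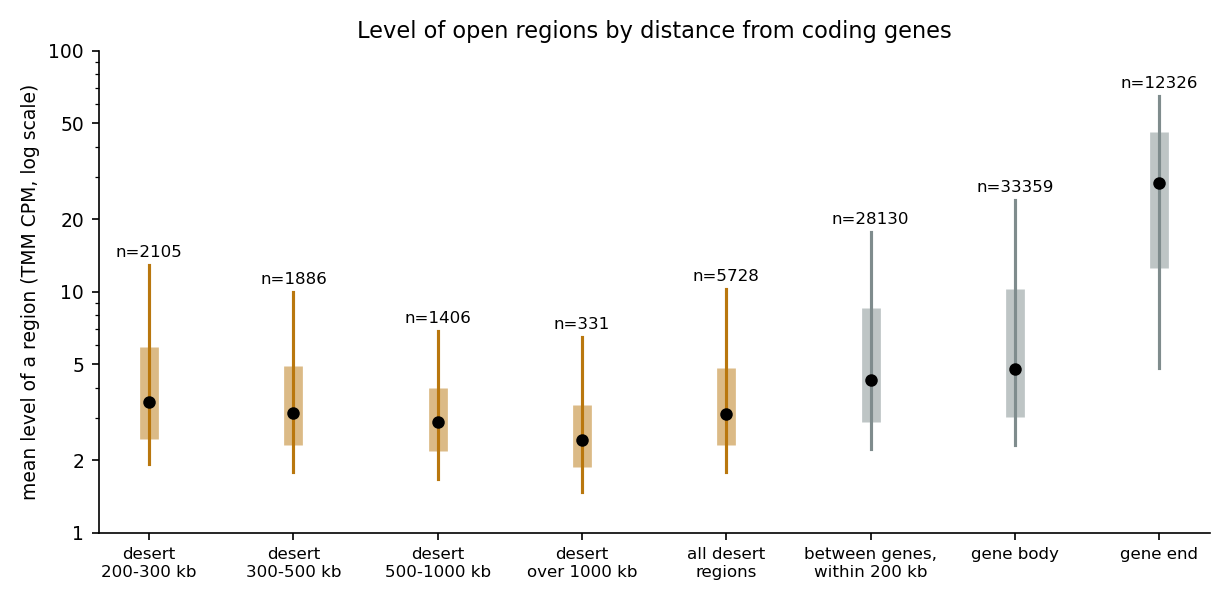
Level of open regions (mean TMM CPM over 9 libraries, log axis) by distance from the nearest coding gene for desert regions and by place for the other autosomal classes. Dots are medians, thick bars the interquartile range and thin lines the 10th to 90th percentile; the desert medians descend with distance, 3.48 CPM at 200 to 300 kb and 2.43 CPM beyond 1000 kb.

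The most open member lay 268 kb from Fzd1, which encodes a Wnt receptor, at chr5:4486019-4486629. It measured 102, 126 and 89.8 CPM with Smndc1 shRNA, 147, 135 and 92.7 CPM with Atrx shRNA, and 157, 124 and 93.3 CPM with empty vector. The region over the Gm26901 promoter, 224 kb from Pcmtd1 at chr1:7397622-7398409, measured 66.2, 68.8 and 48.0 CPM with Smndc1 shRNA, 89.1, 73.9 and 49.2 CPM with Atrx shRNA, and 86.9, 85.3 and 57.5 CPM with empty vector. The other 3 of the 5 most open members lay nearest to Triqk, Gm11677 and Robo2 (a receptor for Slit guidance proteins). The groups overlapped at each of these 5, and none was called in any comparison. The member farthest from a coding gene lay 2188 kb from Pik3c3 in the noncoding gene Gm33860, at chr18:28077654-28078230, and measured 10.7, 10.3 and 11.7 CPM with Smndc1 shRNA, 12, 11.3 and 10.9 CPM with Atrx shRNA, and 14.4, 16.6 and 11.1 CPM with empty vector. It was open at a higher level than the desert median although it was the most remote.

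Members were unevenly spread. They fell in 580 deserts, of which 315 held at least 5 members and together 5128 of the 5728, while 95 held a single member. The mean density was 11.9 members per Mb of desert, and it ranged from 2.23 per Mb on chromosome 14 and 4.71 on chromosome 9 to 27.0 on chromosome 5 and 39.1 on chromosome 11. Chromosomes 5 and 11 held 7169 and 7691 open regions in all, members included, while chromosome 1 held 7359 with a density of 12.3 members per Mb. Copy number was not measured here. The deserts with most members lay between Lcorl and Slit2 on chromosome 5 (121 members), between Nxph1 and Ndufa4 on chromosome 6 (120) and between Bcl11a and Fancl on chromosome 11 (109). At the 200 kb limit itself, the members just inside lay nearest to Fam135b, St6gal2 and Car10 at 200.1 to 200.2 kb, and the regions just outside nearest to Tcerg1l, Clnk and Bcl11b at 199.9 kb. The St6gal2 region averaged 4.42 CPM with Smndc1 shRNA, 2.83 CPM with Atrx shRNA and 3.3 CPM with empty vector, and the Clnk region 28.4, 30.1 and 34.8 CPM in the same order.

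Over all 5728 members, the share of autosomal counts in deserts did not separate the groups. It was 3.08%, 2.67% and 3.16% with Smndc1 shRNA, 2.67%, 3.07% and 3.65% with Atrx shRNA, and 2.74%, 2.82% and 3.27% with empty vector (means ± SD 2.97% ± 0.265, 3.13% ± 0.493 and 2.95% ± 0.287 in this order, n = 3 each). Within each group replicate 3 was the highest, and all 3 pairs of groups overlapped. With 3 libraries against 3, a 2-sided exact permutation test cannot go below p = 0.1, so such shares are given as values.

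The strong desert regions, 13.4% of members, did separate one group. The share over all members was the main measure, and the cut at a mean count of 50 was an alternative setting. Among the 29488 autosomal regions with a mean count of at least 50, the 769 in deserts held 1.65%, 1.62% and 1.63% of counts with Smndc1 shRNA, 1.71%, 1.79% and 1.78% with Atrx shRNA, and 1.77%, 1.76% and 1.72% with empty vector. All 3 Smndc1 shRNA libraries lay below all 6 others, and Atrx shRNA overlapped empty vector. The Smndc1 shRNA libraries averaged 1.63% ± 0.0128, the Atrx shRNA libraries 1.76% ± 0.0457 and the empty vector libraries 1.75% ± 0.0247 (SD, n = 3 each). Smndc1 shRNA was thus 6.75% lower than empty vector and 7.32% lower than Atrx shRNA, both of which comparisons use the same Smndc1 shRNA libraries. An exact permutation test gave p = 0.1 for each, the smallest that 3 against 3 allows.

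**Figure D2:**
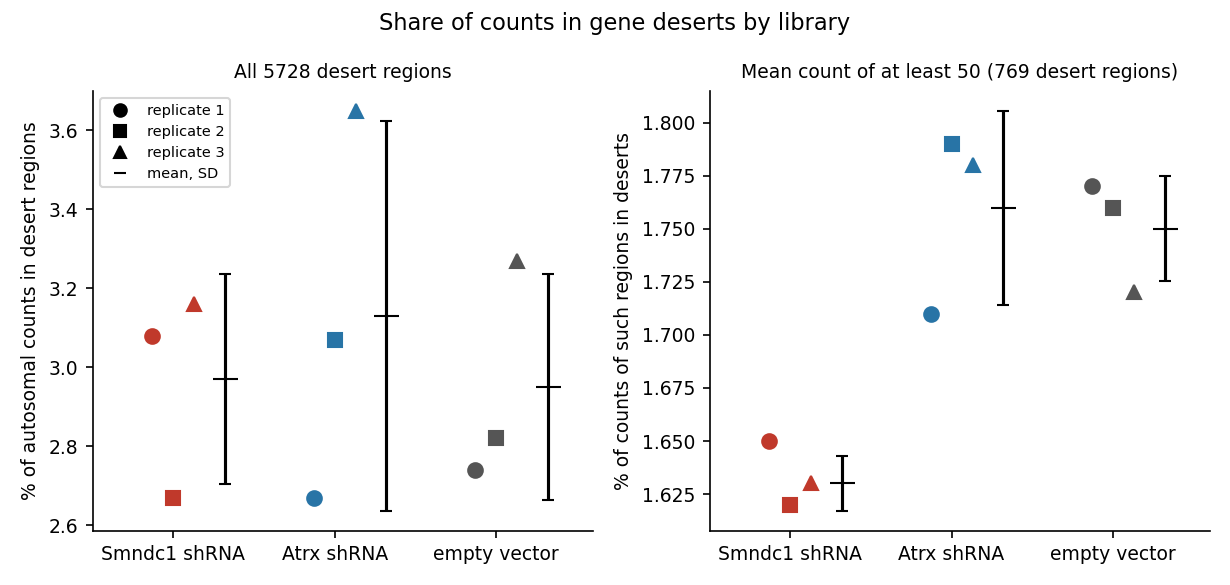
Share of counts in desert regions by library, over all members (left) and among regions with a mean count of at least 50 (right); neither axis starts at 0. Points are libraries, and the dash with its bar is the mean and SD (n = 3). On the left the groups overlap, and on the right the Smndc1 shRNA libraries (1.62% to 1.65%) sit below the others (1.71% to 1.79%).

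The lower share was present in each distance class of strong desert regions. The ratio of the Smndc1 shRNA mean to the empty vector mean was 0.953 at 200 to 300 kb (379 regions), 0.921 at 300 to 500 kb (248) and 0.888 beyond 500 kb (142). Beyond 500 kb the share was 0.276%, 0.269% and 0.244% with Smndc1 shRNA, 0.294%, 0.306% and 0.291% with Atrx shRNA, and 0.306%, 0.303% and 0.28% with empty vector. In each distance class the Smndc1 shRNA libraries lay below the empty vector libraries, and the differences between classes were not tested. At 200 to 300 kb Smndc1 shRNA overlapped Atrx shRNA, with 0.905% in Smndc1 shRNA replicate 3 and 0.896% in Atrx shRNA replicate 1. In the other classes of strong regions the groups overlapped, with ratios of 0.974 between genes within 200 kb, 0.996 in gene bodies and 1.02 at gene ends. Computed within chromosomes, the ratio was below 1 on 18 of 19 autosomes and ranged from 0.838 (chromosome 19, with 11 strong desert regions) to 1.05 (chromosome 12). On the 17 autosomes with at least 20 strong desert regions it was below 1 on 16, and the lowest was 0.873 (chromosome 16). All these ratios come from the same libraries, so the chromosomes are not separate repeats. The ratio of Atrx shRNA to empty vector ranged from 0.924 to 1.06 over the 19 autosomes.

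**Figure D3:**
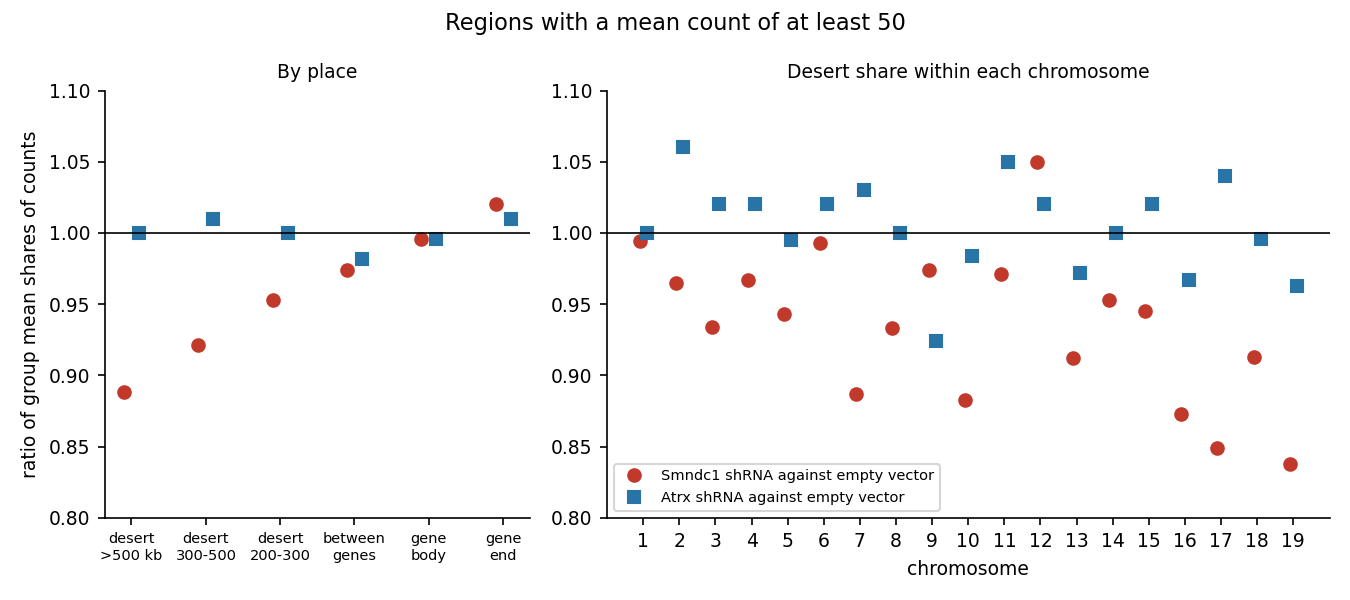
Ratio of group mean shares of counts among regions with a mean count of at least 50, by place (left) and for the desert share within each autosome (right), for Smndc1 shRNA (circles) and Atrx shRNA (squares), each against empty vector; the line marks 1. Smndc1 shRNA lies at 0.888 to 0.953 in the desert classes and below 1 on 18 of 19 autosomes.

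The difference was of like size under other settings. It was 7.03% at a minimum mean count of 100 (312 desert regions) and 7.68% without the strongest 10% of the strong desert regions. At a minimum of 30 (1471 desert regions) it was 5.19%, and Smndc1 shRNA then still lay below empty vector but overlapped Atrx shRNA. Leaving out each Smndc1 shRNA or empty vector library in turn gave 6.29% to 7.5%, and leaving out replicate 3 of each group gave 7.37%. These settings were chosen after the data were seen. Region by region, the strong members had a median log2 fold change of -0.16 for Smndc1 shRNA against empty vector, with 30.2% positive, against -0.06 and 41.8% for all strong regions. With offsets that align each library's trend over level (trended offsets, used because replicate 3 was flatter), the medians were -0.09 in deserts and 0.01 for all strong regions. The weaker members did not share the drop. The 4819 tested members with a mean count under 50 had a median of 0.13 with TMM factors (58.9% positive), against 0.1 and 57.8% for all such regions. With trended offsets their median was 0.01 (50.6% positive), against 0.0 and 50.4%.

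For Smndc1 shRNA against empty vector, 2 of the 5588 members tested were called higher and 6 lower by edgeR's quasi-likelihood F test (Benjamini-Hochberg adjusted p under 0.05 over 80345 regions, TMM factors). That is 0.143% of members, near the background of 0.156% of all regions called (0.0199% higher and 0.136% lower). Members were mostly weak, so regions of like level were also set beside them. Of the strong members 0 were called higher and 5 lower (0.65%), against 0.358% of all strong regions. Below a mean count of 50, 2 were called higher and 1 lower (0.0623%), against 0.0339% of such regions. With trended offsets the shares below 50 were 0.228% and 0.293%. These shares rest on few calls. With trended offsets 10 members were called higher and 29 lower (0.698%), against a background of 1.12% (0.409% higher and 0.713% lower), and all 8 regions called with TMM factors were among these 39. The 140 other members fell below the count filter. Over all tested members the median log2 fold change was 0.07 with TMM factors and -0.02 with trended offsets, against 0.02 and 0.01 over all regions, so its sign depended on the scaling.

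Of the 6 regions called lower, the one with the largest drop lay 559.5 kb from D3Ertd751e, at chr3:42362525-42363137. It measured 5.29, 1.02 and 1.69 CPM with Smndc1 shRNA, 4.82, 4.2 and 5.36 CPM with Atrx shRNA, and 10.1, 9.99 and 8.45 CPM with empty vector. Both shRNA groups lay below every empty vector library, and only Smndc1 shRNA was called (log2 fold change -1.80 ± 0.39 SE, adjusted p = 0.0227), while Atrx shRNA measured -0.98 ± 0.37 against empty vector. Rassf9, a Ras association domain gene, had a region 213 kb away at chr10:102762177-102762882 with a similar order. It measured 7.35, 6.1 and 3.89 CPM with Smndc1 shRNA, 8.03, 8.21 and 7.14 CPM with Atrx shRNA, and 19.0, 14.0 and 12.7 CPM with empty vector, and it fell with Smndc1 shRNA (-1.39 ± 0.27, adjusted p = 0.00808). With Atrx shRNA the same region measured -0.96 ± 0.26 and was not called.

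At the other 4 regions that fell, the Atrx shRNA libraries were closer to empty vector. The region 325 kb from Dcc, the netrin receptor of axon guidance, at chr18:72675952-72676591 measured 6.18, 2.71 and 5.08 CPM with Smndc1 shRNA, 11.4, 13.7 and 12 CPM with Atrx shRNA, and 16.0, 16.6 and 6.73 CPM with empty vector. Its log2 fold change with Smndc1 shRNA was -1.49 ± 0.29 (adjusted p = 0.00888) although empty vector replicate 3 lay close to the Smndc1 shRNA libraries. The region 266 kb from Sptlc3, a subunit of the enzyme that starts sphingolipid synthesis, at chr2:139227731-139228389 measured 7.79, 9.32 and 5.75 CPM with Smndc1 shRNA, 17.7, 16.2 and 14.8 CPM with Atrx shRNA, and 21.8, 16.0 and 12.4 CPM with empty vector (-1.13 ± 0.25, adjusted p = 0.0232). The 3 Smndc1 shRNA libraries lay below all others there.

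The region 245 kb from Tmprss15, which encodes the protease that activates trypsinogen, at chr16:79335959-79336879 measured 13.5, 8.98 and 8.29 CPM with Smndc1 shRNA, 22.5, 21.2 and 13.8 CPM with Atrx shRNA, and 27.1, 23.1 and 17.1 CPM with empty vector (-1.12 ± 0.24, adjusted p = 0.0226). The region 377 kb from Tshz1, a zinc finger transcription factor, at chr18:83633763-83634738 in the long noncoding RNA gene Gm31621 measured 10.3, 16.9 and 9.98 CPM with Smndc1 shRNA, 22, 23.5 and 18.5 CPM with Atrx shRNA, and 27.8, 30.9 and 16.7 CPM with empty vector (-1.03 ± 0.24, adjusted p = 0.0461). At Tshz1 the Smndc1 shRNA and empty vector libraries overlapped, and at Tmprss15 they did not.

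Both regions called higher with Smndc1 shRNA were weak with empty vector. The region 950.3 kb from Mat2b, a regulatory subunit of methionine adenosyltransferase, at chr11:39728508-39729445 measured 11.3, 14.7 and 11.2 CPM with Smndc1 shRNA, 3.85, 6.3 and 8.77 CPM with Atrx shRNA, and 2.96, 4.15 and 2.82 CPM with empty vector (1.89 ± 0.32, adjusted p = 0.00195). The region 265 kb from Grin2a, an NMDA receptor subunit, at chr16:9303068-9303680 measured 6.18, 4.41 and 7.44 CPM with Smndc1 shRNA, 5.3, 3.05 and 4.38 CPM with Atrx shRNA, and 0.889, 1.04 and 2.35 CPM with empty vector (2.08 ± 0.50, adjusted p = 0.0499). In both, Smndc1 shRNA lay above empty vector without overlap, as it did in 6.66% of members and 5.76% of all regions. Atrx shRNA averaged between the other groups in both. A second member of the Grin2a desert, in the noncoding gene Gm41418 at chr16:9280832-9281419, went the other way. It measured 26.0, 34.6 and 28.6 CPM with Smndc1 shRNA, 36.9, 36.8 and 22.9 CPM with Atrx shRNA, and 50.6, 47.0 and 42.1 CPM with empty vector, and it was called lower with trended offsets only (-0.60 ± 0.14, adjusted p = 0.00897).

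These 8 calls depended on the libraries. Without empty vector replicate 1, none of the 8 stayed below the threshold (adjusted p from 0.0738 to 0.506). Without empty vector replicate 2, Mat2b alone did, and without Smndc1 shRNA replicate 1, 2 or 3, 4 of the 8 did in each case. Over all members, leaving out 1 library gave 0 to 40 calls, the 40 without empty vector replicate 3. Those 40 were 11 higher and 29 lower of 5666 members, against 204 and 405 of 80622 regions. With trended offsets, 3 of the 22 named regions called for Smndc1 shRNA against empty vector were called in all 9 fits that left out a library: those nearest to D3Ertd751e, Mat2b and Tmc3.

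The Tmc3 region carried the Gm29976 promoter printed above, 202 kb from Tmc3 and so just inside the distance limit, at chr7:83382661-83383457. It measured 11.9, 20.3 and 9.3 CPM with Smndc1 shRNA, 30.7, 25.2 and 28.1 CPM with Atrx shRNA, and 26.7, 32.4 and 24.3 CPM with empty vector. All 3 Smndc1 shRNA libraries lay below the other 6. With trended offsets it fell by 0.96 ± 0.18 on the log2 scale against empty vector (edgeR adjusted p = 0.000464) and by 1.02 ± 0.18 against Atrx shRNA (adjusted p = 0.00018). With TMM factors it missed the threshold (-1.01 ± 0.24, adjusted p = 0.0539 against empty vector). The region over the Gm52184 promoter, 240.0 kb from Tbc1d22a at chr15:86737814-86739268, measured 47.4, 59.8 and 37.0 CPM with Smndc1 shRNA, 48.2, 42.8 and 30 CPM with Atrx shRNA, and 37.0, 35.9 and 28.5 CPM with empty vector. It rose with trended offsets (0.55 ± 0.14, adjusted p = 0.0153) and not with TMM factors (adjusted p = 0.61). No other of the 55 promoter regions was called in any comparison with either scaling, and 0 of the 55 were called with TMM factors. Thus 1 of the 55 was called higher and 1 lower against empty vector with trended offsets. The shares called higher and lower were 0.179% and 0.519% of members, and 0.409% and 0.713% of all regions. With 1 region in each direction, no result about promoters can be drawn.

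**Figure D4:**
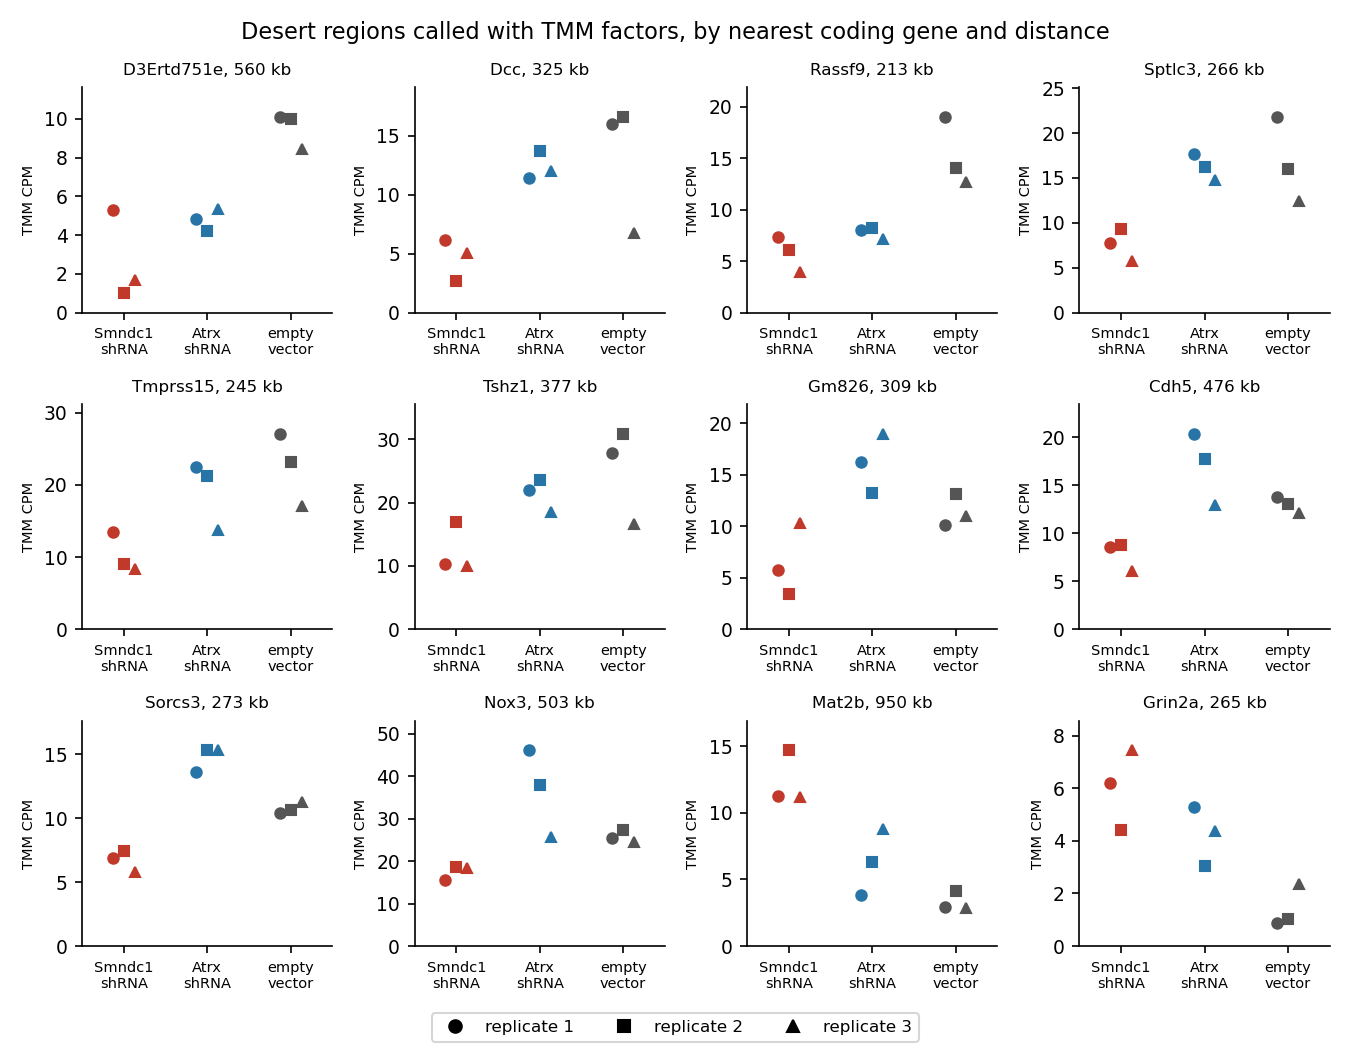
Level (TMM CPM, axes start at 0) in each library for the 12 desert regions called with TMM factors for Smndc1 shRNA against empty vector or against Atrx shRNA, titled by nearest coding gene and distance. In 10 of the 12 the Smndc1 shRNA mean is the lowest of the 3 groups, and in the Mat2b and Grin2a regions it is the highest.

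Among the other regions called with trended offsets for Smndc1 shRNA against empty vector, 2 lay in the desert nearest to Myc, the growth regulator. The region 579 kb from Myc at chr15:62568949-62569904 measured 42.5, 51.5 and 26.7 CPM with Smndc1 shRNA, 52.2, 37.8 and 17.5 CPM with Atrx shRNA, and 27.8, 28.3 and 17.5 CPM with empty vector (0.76 ± 0.16, adjusted p = 0.00404). The region 338 kb from Myc at chr15:62328257-62329093 measured 12.1, 17.3 and 10.5 CPM with Smndc1 shRNA, 15.3, 18.5 and 9.74 CPM with Atrx shRNA, and 9.33, 8.56 and 4.23 CPM with empty vector (0.92 ± 0.25, adjusted p = 0.0358). On the TMM scale shown here the groups overlapped at the first and did not at the second. The region 221 kb from Sox9, a transcription factor of pancreatic progenitors, at chr11:113008393-113009106 measured 15.3, 14.1 and 24.0 CPM with Smndc1 shRNA, 20.2, 13.7 and 14.3 CPM with Atrx shRNA, and 12.1, 11.0 and 8.77 CPM with empty vector (0.83 ± 0.22, adjusted p = 0.0289). None of these 3 was called with TMM factors (adjusted p from 0.228 to 0.421).

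The remaining named regions with these offsets were weak. Those lower with Smndc1 shRNA lay nearest to Sqor (-2.04 ± 0.48), Tenm3, a synaptic adhesion protein (-1.98 ± 0.48), Trps1, a GATA-type repressor (-1.89 ± 0.47), and Fhit (-1.50 ± 0.40). Those higher lay nearest to Prmt6, an arginine methyltransferase (2.06 ± 0.54), Igfbp3 (1.55 ± 0.44), Arid1b, a subunit of the BAF remodelling complex (1.25 ± 0.34), and Cbln4 (1.11 ± 0.32). At the Sqor region the levels were 1.03, 1.53 and 1.69 CPM with Smndc1 shRNA, 5.46, 3.82 and 4.06 CPM with Atrx shRNA, and 5.78, 6.1 and 3.29 CPM with empty vector. The 39 calls were spread over 35 deserts, 11 of them in long noncoding RNA genes, and 28 of the 39 had a mean count of at least 50. Among the 769 strong members, 4 were called higher and 24 lower with these offsets (3.64%), against 2.5% of all strong regions.

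For Atrx shRNA against empty vector, which shares the empty vector libraries with the comparison above, no member was called with TMM factors, and the background was 0% of all regions. DESeq2 and limma voom also called 0. At an unadjusted p under 0.05 edgeR counted 242 members higher and 82 lower, that is 4.33% and 1.47% of members, against 3.15% and 2.6% of all regions. Without Atrx shRNA replicate 3 these counts were 154 and 130 (2.73% and 2.31%, against 3.01% and 3.04%), and with trended offsets the shares were 5.01% and 2.42%, against 5.16% and 4.32%. The median log2 fold change of members was 0.13, against 0.01 over all regions, and 0.05 against -0.02 with trended offsets. Without Atrx shRNA replicate 3 the median over members was -0.05, so its sign rested on that library. Among the strong members the median was -0.03, against -0.05 for all strong regions.

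With trended offsets 4 members were called higher and 2 lower with Atrx shRNA (0.107%), under the background of 0.256% (0.185% higher and 0.0709% lower). The region 276 kb from Igsf11, an immunoglobulin-type adhesion gene, at chr16:39302844-39303968 measured 23.0, 22 and 15.3 CPM with Atrx shRNA, and 44.1, 35.7 and 31.0 CPM with empty vector. It fell by 0.85 ± 0.16 on the log2 scale (adjusted p = 0.00244), and the Smndc1 shRNA libraries measured 24.6, 31.4 and 24.4 CPM. A pair of regions in the long noncoding RNA gene B230214G05Rik, nearest to Zdhhc25 on chromosome 15, moved in opposite directions. At chr15:88343544-88344545 Atrx shRNA measured 19.6, 23.1 and 22.7 CPM, against 38.1, 39.0 and 29.6 CPM with empty vector (-0.65 ± 0.16, adjusted p = 0.0395). At chr15:88362264-88363449 Atrx shRNA measured 55.9, 51.0 and 37.3 CPM, against 31.0, 35.4 and 24.9 CPM with empty vector (0.67 ± 0.14, adjusted p = 0.00655). In all 3 regions the Atrx shRNA and empty vector libraries did not overlap, but the rule for naming regions called with trended offsets required this on that scale. Among all regions tested, these groups did not overlap in 7.3% (Atrx shRNA higher) and 7.55% (lower) with trended offsets. Among members the shares were 7.34% and 4.96%.

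The other 3 regions called higher with Atrx shRNA lay nearest to Arid1b, Pcmtd1 and Myc. The Arid1b region at chr17:4641794-4642294 measured 11.1, 7.64 and 6.98 CPM with Atrx shRNA, against 3.26, 2.33 and 4.85 CPM with empty vector (1.37 ± 0.34, adjusted p = 0.0293). The Pcmtd1 region at chr1:7387980-7388795, within Gm26901, measured 8.19, 6.68 and 11.0 CPM with Atrx shRNA, against 3.7, 3.37 and 3.76 CPM with empty vector (1.29 ± 0.33, adjusted p = 0.0473). The Myc region at 338 kb, given above, had a log2 fold change of 1.03 ± 0.25 with Atrx shRNA (adjusted p = 0.0305), and the Arid1b and Myc regions were called in both comparisons, which share empty vector. None of these 6 calls held in all 9 fits that left out a library: without empty vector replicate 1, 0 of the 6 were called (adjusted p from 0.109 to 0.224), and without Atrx shRNA replicate 1 or 2 only the Igsf11 region was.

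For Smndc1 shRNA against Atrx shRNA, which shares its Smndc1 shRNA libraries with the first comparison, 0 members were called higher and 6 lower with TMM factors (0.107%), against a background of 0.0759% (0.0224% higher and 0.0535% lower). With trended offsets 4 were called higher and 25 lower (0.519%), against 0.579% of all regions (0.197% higher and 0.382% lower). Over all tested members the median log2 fold change was -0.07 with TMM factors and -0.06 with trended offsets, against 0.00 and 0.01 over all regions. Among the strong members the medians were -0.14 and -0.12, against -0.02 and 0.01 for all strong regions. All 6 calls with TMM factors were strong members (0.78% of them), against 0.186% of all strong regions. Of the 29 calls with trended offsets, 26 were strong members (3.38% of them), against 1.41% of all strong regions. Without Atrx shRNA replicate 3 the TMM median was 0.12, and the trended one -0.03.

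Of these 6 regions, those at Dcc (-1.40 ± 0.29, adjusted p = 0.0365) and Sptlc3 (-1.09 ± 0.25, adjusted p = 0.05 after rounding) were also called against empty vector. At the other 4 the Atrx shRNA libraries were the highest group on average. The region 503 kb from Nox3, an NADPH oxidase of the inner ear, at chr17:4199405-4200063 measured 15.6, 18.6 and 18.3 CPM with Smndc1 shRNA, 46.1, 38.0 and 25.6 CPM with Atrx shRNA, and 25.5, 27.4 and 24.4 CPM with empty vector. Smndc1 shRNA lay below every other library there (-1.06 ± 0.24 against Atrx shRNA, adjusted p = 0.0474), and with trended offsets the adjusted p was 2.88e-05.

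The region 476 kb from Cdh5, the cadherin of endothelial junctions, at chr8:103624704-103625866 measured 8.53, 8.81 and 6.09 CPM with Smndc1 shRNA, 20.4, 17.8 and 13 CPM with Atrx shRNA, and 13.8, 13.1 and 12.1 CPM with empty vector (-1.12 ± 0.24 against Atrx shRNA, adjusted p = 0.0389). The region 273 kb from Sorcs3, a sorting receptor, at chr19:49078608-49079222 measured 6.91, 7.46 and 5.75 CPM with Smndc1 shRNA, 13.6, 15.3 and 15.3 CPM with Atrx shRNA, and 10.4, 10.6 and 11.3 CPM with empty vector (-1.13 ± 0.25, adjusted p = 0.0466). The region 309 kb from Gm826 at chr2:160002569-160003181 measured 5.74, 3.39 and 10.3 CPM with Smndc1 shRNA, 16.2, 13.2 and 19.0 CPM with Atrx shRNA, and 10.1, 13.1 and 11.0 CPM with empty vector (-1.32 ± 0.27, adjusted p = 0.0307). In all of these Smndc1 shRNA lay below Atrx shRNA without overlap, as it did in 6.17% of members and 5.15% of all regions. At Gm826 Smndc1 shRNA overlapped empty vector.

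None of the 6 regions was called in every fit that left out a library. Without Atrx shRNA replicate 1 (adjusted p from 0.159 to 0.527), Atrx shRNA replicate 2, Smndc1 shRNA replicate 1 or 2, or empty vector replicate 1, none of the 6 stayed below the threshold, and without empty vector replicate 2 the Gm826 region alone did. Without Smndc1 shRNA replicate 3, 2 of the 6 did. With trended offsets the Nox3 region at 503 kb and the Tmc3 region were called in all 9 such fits. The 4 regions called higher with trended offsets lay nearest to Bod1l (0.53 ± 0.13, adjusted p = 0.0135), Unc5d, a netrin receptor (0.68 ± 0.17, adjusted p = 0.0286), Stim2, a calcium sensor of the endoplasmic reticulum (0.91 ± 0.22, adjusted p = 0.0122), and Gxylt1 (1.35 ± 0.33, adjusted p = 0.0157). The Bod1l region was among the strongest that were called, with 73.5, 69.3 and 55.0 CPM with Smndc1 shRNA, 50.3, 49.8 and 41.7 CPM with Atrx shRNA, and 67.2, 52.8 and 39.1 CPM with empty vector. Among the regions lower with these offsets, those nearest to Nox3 at 231 kb (-1.67 ± 0.44), Dipk2a (-1.31 ± 0.33) and Myc at 835 kb (-1.16 ± 0.30) joined the TMM calls.

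Whole deserts were also compared by summing the intergenic regions between the same 2 coding genes, for the 315 deserts with at least 5 members among 7403 gaps tested. These sums include regions within 200 kb of a coding gene, which are not members, and leave out regions at gene ends. No desert and no other gap was called in any of the 3 comparisons by edgeR with TMM factors. At an unadjusted p under 0.05, 2 deserts were higher and 26 lower for Smndc1 shRNA against empty vector (8.89%, against 8.82% of all gaps). These counts were 10 higher and 2 lower for Atrx shRNA against empty vector (3.81%, against 5.44%), and 1 higher and 20 lower for Smndc1 shRNA against Atrx shRNA (6.67%, against 6.36%). The combined shares were near or under those of all gaps, but the directions were uneven. Lower deserts were 8.25% for Smndc1 shRNA against empty vector, against 5.65% of all gaps, and 6.35% for Smndc1 shRNA against Atrx shRNA, against 3.93%. With trended offsets the counts higher and lower were 3 and 14 (5.4%, against 9.71% of all gaps), 9 and 2 (3.49%, against 6.21%), and 2 and 12 (4.44%, against 6.89%) in the order of the comparisons above, and the lower shares were 4.44% against 5.34% and 3.81% against 3.8% for the comparisons with Smndc1 shRNA. With members alone summed (571 gaps, TMM factors), edgeR called no desert. At an unadjusted p under 0.05 the counts were then 4 and 18 (6.98%, against 7.71% of these gaps), 8 and 5 (4.13%, against 3.15%), and 0 and 16 (5.08%, against 5.08%). Each of these 571 gaps holds a member, and the 315 deserts are the larger part of them. Their share is thus no background from outside deserts, and no result is drawn from the likeness. The lowest adjusted p for Smndc1 shRNA against empty vector was 0.608. With all intergenic regions summed, the desert with the lowest p lay between Stpg2 and Pdha2 on chromosome 3. This gap of 1500 kb had 6 members with a median of 2.01 CPM and a maximum of 4.24 CPM. Its summed level was 25.6, 21.8 and 15.8 CPM with Smndc1 shRNA, 28.3, 29.0 and 23.8 CPM with Atrx shRNA, and 46.2, 42.0 and 40.1 CPM with empty vector. Both shRNA groups lay below all empty vector libraries (-1.02 ± 0.19, adjusted p = 0.134, and -0.67 ± 0.18, adjusted p = 0.546). The desert between Wac and Fzd8 on chromosome 18 had another order, with 61.1, 58.9 and 57.5 CPM with Smndc1 shRNA, 81.9, 82.4 and 84.5 CPM with Atrx shRNA, and 60.7, 63.9 and 56.0 CPM with empty vector. There Atrx shRNA lay above all other libraries (0.46 ± 0.13 against empty vector, adjusted p = 0.546).

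Members were grouped by the class of their nearest coding gene, from lists chosen with earlier results of these data known. Developmental transcription factors were nearest to 375 members (50 of 92 genes). Of these, 0 were called higher and 1 lower with TMM factors for Smndc1 shRNA against empty vector, and 3 higher and 2 lower with trended offsets. These are 0.269% and 1.34% of the 372 tested, against 0.156% and 1.12% of all regions, and rest on 1 and 5 regions. Their median log2 fold change was 0.10 with TMM factors, against 0.07 for all members. Neural adhesion and guidance genes, many of them long genes in gene-poor stretches, were nearest to 408 members (57 of 83 genes) with a lower median level of 2.4 CPM. They had a median of -0.06 for Smndc1 shRNA against empty vector with TMM factors and -0.19 with trended offsets, and 0 were called higher and 1 lower with TMM factors and 0 and 2 with trended offsets (0.267% and 0.533% of the 375 tested, against the same 0.156% and 1.12%). Islet genes were nearest to 123 members (13 of 48 genes), and none of these was called in any comparison with either scaling. Ion channels were nearest to 62 members (14 of 181 genes), among them the 2 Grin2a regions above. Of the 58 tested, 1 was called with TMM factors (1.72%) and 2 with trended offsets (3.45%), against the same 0.156% and 1.12% of all regions. These calls are the 2 Grin2a regions, which lie in 1 desert and went in opposite directions. No member lay nearest to any of the 1465 olfactory and vomeronasal receptor genes, which sit in dense clusters.

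The regions on the Mir344 hairpins, whose seeds are shown above, were stronger than most members. They averaged 4.03 (Mir344e) to 35.6 (Mir344g) CPM with a median of 18.1 CPM, and the other 9 members of the same desert had a median of 8.85 CPM. The hairpins are close copies, so how the authors' alignment divided reads between them is uncertain. Summed over the 10 regions the level was 161, 207 and 116 CPM with Smndc1 shRNA, 231, 197 and 156 CPM with Atrx shRNA, and 225, 234 and 163 CPM with empty vector. The means were 161 ± 45.5 CPM with Smndc1 shRNA, 195 ± 37.7 CPM with Atrx shRNA and 207 ± 38.9 CPM with empty vector (SD, n = 3 each), and the groups overlapped. None of the 10 regions was called in any comparison. For Smndc1 shRNA against empty vector 9 of 10 had negative log2 fold changes, with a median of -0.44 with TMM factors and -0.36 with trended offsets, and the lowest adjusted p was 0.429 and 0.0884. Among all strong members 30.2% were positive with TMM factors and 38.2% with trended offsets, against 41.8% and 50.8% of all strong regions. The 10 regions lie in the same desert and come from the same libraries, so they are not separate repeats. At the Mir344 region itself, chr7:61877534-61878240, the levels were 23.7, 38.5 and 15.9 CPM with Smndc1 shRNA, 45.1, 28.4 and 29.1 CPM with Atrx shRNA, and 37.0, 42.7 and 31.3 CPM with empty vector. Mir344d-2, whose RNA gene makes the same 3p seed as Mir344e, had the only positive value (0.04 ± 0.26).

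**Figure D5:**
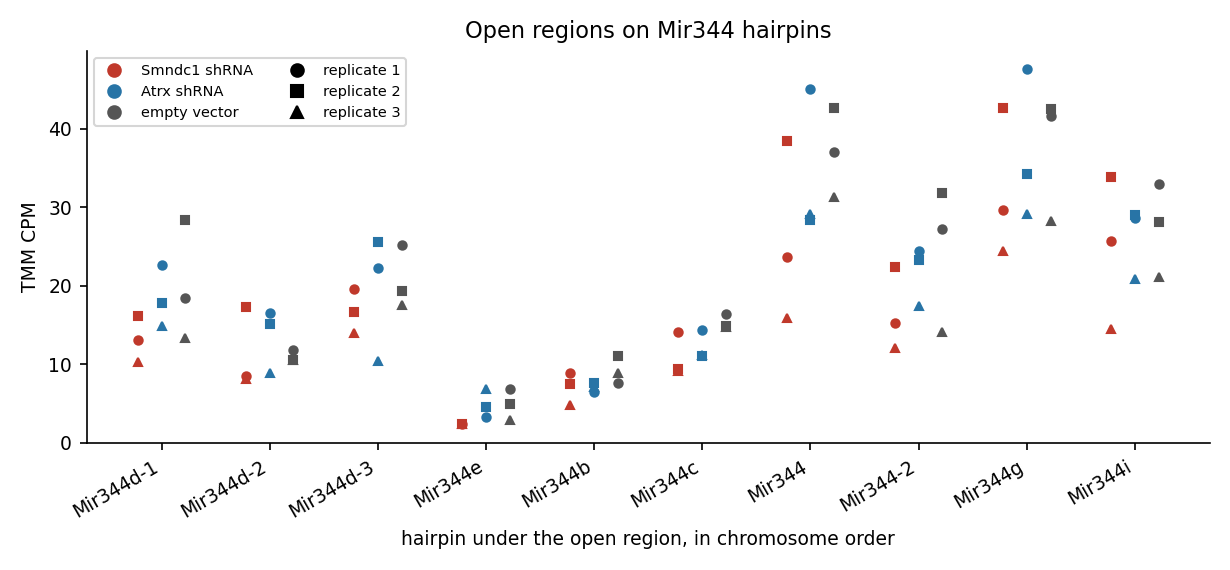
Level (TMM CPM, axis from 0) of the 10 open regions on Mir344 hairpins in each library, in chromosome order; colours mark groups and shapes replicates. The groups overlap at most hairpins, and the levels range from Mir344e, the weakest, to Mir344g, the strongest on average.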

How the data were processed

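ATAC-seq counts per region were analysed for 9 libraries. The deposited table holds whole-number counts per consensus region made by the authors, and the deposited region list holds other values, namely each region's mm10 coordinates. The submitters' processing notes name MACS2 2.2.7.1, deepTools 3.5.1, bedtools 2.27.1, SAMtools and Bowtie2 2.4.4, and the build mm10 (GRCm38). Not given in the sources used here are the rules for merging regions and counting reads. Every count column was matched to a library (0 unmatched).

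Regions were placed against 21631 protein-coding genes of the RefSeq table (GRCm38.p6). A gene end reached 1000 bp outside to 500 bp inside. The test was edgeR 4.0.16 in R 4.3.3 (quasi-likelihood F test, robust, TMM factors, filterByExpr minimum count 10, all 9 libraries), adjusted by Benjamini-Hochberg over 80345 regions and called under 0.05. Trended offsets were loess curves of span 0.3 over level. DESeq2 1.42.0, limma 3.58.1 voom, other filters, thresholds, scalings, a replicate block and left-out libraries were alternatives. The procedure was tested on simulated data. Fold changes are log2, and each SE was derived as the size of the log2 fold change divided by the square root of its F statistic. p-values measure only the spread between these libraries.

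The named regions were all those called where at most 12 were, the 6 highest and 6 lowest called with trended offsets that had a mean log2 CPM of at least 1 and groups that did not overlap, the 5 most open, the 3 farthest, those nearest the limit, and, per gene list, as many as 4 members that were called. The 2 called promoter regions and the Mir344 regions were added after their values were seen. The members and lists were chosen with earlier results of these data known. One marker gene is not reported here.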

Additional observations from a re-analysis of the deposited data

How the results depend on the processing

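The number of members called depended on the scaling, the tool and the libraries. For Smndc1 shRNA against empty vector the 8 calls became 3 at an adjusted p under 0.01, 39 with trended offsets, 2 with DESeq2, 1 with limma voom and 16 among regions with a mean count of at least 50, where fewer regions were tested. All 16 were lower, out of 769 members tested, against 73 higher and 218 lower of all 30154 such regions. Over all 80345 regions, calls higher and lower were 3 and 24 at 0.01, 3 and 23 with DESeq2, and 3 and 8 with limma voom. Without replicate 3 of every group there were 36, and leaving out 1 library gave 0 (without empty vector replicate 1) to 40 (without empty vector replicate 3). The 36 were 5 higher and 31 lower of 5450 members, against 122 and 492 of 79612 regions. The 40 were 11 higher and 29 lower of 5666 members, against 204 and 405 of 80622 regions. Without empty vector replicate 1, 1 higher and 0 lower of 80663 regions were called. With trended offsets the 39 calls became 9 (without empty vector replicate 1) to 65 (without empty vector replicate 3). The 9 were 2 higher and 7 lower of 5680 members, against 73 and 173 of 80663 regions. The 65 were 16 higher and 49 lower of 5666 members, against 542 and 675 of 80622 regions. For Atrx shRNA against empty vector the 0 calls became 6 with trended offsets and 5 without replicate 3 of every group, and stayed at 0 with each library left out. The 5 were 4 higher and 1 lower of 5450 members, against 68 and 23 of 79612 regions. With trended offsets the 6 became 0 (without empty vector replicate 1) to 17 (without Smndc1 shRNA replicate 3). The 17 were 14 higher and 3 lower of 5682 members, against 319 and 134 of 80656 regions. For Smndc1 shRNA against Atrx shRNA the 6 calls became 0 at an adjusted p under 0.01, 29 with trended offsets, 3 with DESeq2 size factors in edgeR, 0 with DESeq2, 0 with limma voom and 19 without replicate 3 of every group. The 3 were all lower, against 11 higher and 23 lower of 80345 regions. The 19 were 1 higher and 18 lower of 5450 members, against 50 and 239 of 79612 regions. Leaving out 1 library gave 0 (among others without Atrx shRNA replicate 1) to 11 (without empty vector replicate 3), and with trended offsets 7 (without Atrx shRNA replicate 1) to 34 (without empty vector replicate 3). The 11 were 1 higher and 10 lower of 5666 members, against 33 and 74 of 80622 regions. The 7 were 1 higher and 6 lower of 5686 members, against 42 and 99 of 80679 regions. The 34 were 5 higher and 29 lower of 5666 members, against 184 and 334 of 80622 regions. The causes of these changes in the number of calls were not tested, except that left-out libraries and thresholds change that number by construction. No filter on low counts and a fit of the 6 libraries compared kept each count within 1.5 times.

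The libraries were not treated as paired by their numbers. Deviations from the group means correlated at 0.313 to 0.419 between the replicate 3 libraries but at -0.0392 to 0.254 between the others with the same number. Libraries of different groups with different numbers correlated at -0.375 to 0.299. The labels do not say that a number marks a shared day or batch. With the replicate number as a block, members called numbered 63 for Smndc1 shRNA against empty vector, 10 for Atrx shRNA against empty vector and 45 for Smndc1 shRNA against Atrx shRNA. These are 1.13%, 0.179% and 0.805% of members, against 1.58%, 0.288% and 0.764% of all regions. With the block and trended offsets together they numbered 93, 33 and 68 (1.66%, 0.591% and 1.22%, against 2.63%, 0.998% and 1.42%). Summed deserts called with the block numbered 7, 1 and 3 in the same order (2.22%, 0.317% and 0.952%, against 1.51%, 0.23% and 0.662% of all gaps), against 0 each without it. Without empty vector replicate 3, 1 summed desert was called for Smndc1 shRNA against empty vector, and the other fits that left out a library called 0.

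The median level of members relative to all autosomal regions (Smndc1 shRNA minus empty vector, log2) was 0.113, and -0.0859 with a mean count of at least 50. The Smndc1 shRNA to empty vector ratio of strong desert shares was 0.932, and 0.948 at a minimum mean count of 30. It stayed at 0.925 to 0.937 with each library left out. No named region that was called with TMM factors or trended offsets changed sign, in the comparison that called it, under an alternative that could be fitted. The uncalled Mir344 regions did change sign in part: 8 of 10 were negative for Atrx shRNA against empty vector with TMM factors and 9 with trended offsets, and for Smndc1 shRNA against Atrx shRNA 10 and 9. Low counts limit the precision of single desert regions.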
